A study of Mus musculus with 6 samples.

Results

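The immunoglobulin kappa variable (Igkv) genes were examined as a group in RNA-seq libraries of mouse articular cartilage. Members were all genes of the deposited table whose name starts with Igkv, which gave 118 of 34709 genes. All 118 lie on chromosome 6, between positions 67555497 and 70704177 of GRCm38, with 50 on the plus strand and 68 on the minus strand. By their annotated type 98 can encode a variable segment and 20 are pseudogenes. The knockout (KO) and wildtype (WT) groups each had 3 libraries, which came from male mice of 18 months according to the column names and the methods of the study, with littermates as WT and C57BL/6J given as the background of the KO line. The labels do not say whether each library was made from 1 mouse or from a pool, so the p-values below measure the spread between these samples.

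A kappa light chain gene is assembled during B cell development, when the RAG recombinase joins 1 V segment to 1 J segment upstream of the single constant gene, Igkc. Each B cell usually carries 1 productive light chain rearrangement, and its daughter cells inherit it, so that the V segments in a tissue's RNA record which B cells and plasma cells were there and how much of the chain each made. Plasma cells transcribe the rearranged gene far more strongly than resting B cells. Segments in the same orientation as the J cluster are joined by deletion of the DNA between them, and those in the opposite orientation by inversion.

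The 10 segments shown next are those that led the Igkv expression of at least 1 library or stood out in 1 sample. They are shown because the stretch downstream of the conserved cysteine codon is the part of the V gene that enters CDR3, the loop at the V to J junction, and because most 3′ ends belong to 1 segment. Each line gives the last 60 bases of the germline V exon from GENCODE M21 (GRCm38), 5′ to 3′ on the coding strand, with the cysteine codon and all that follows it in capitals.
Igkv5-39: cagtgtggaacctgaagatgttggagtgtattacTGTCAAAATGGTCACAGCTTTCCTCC
Igkv4-55: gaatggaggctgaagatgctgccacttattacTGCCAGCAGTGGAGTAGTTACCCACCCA
Igkv19-93: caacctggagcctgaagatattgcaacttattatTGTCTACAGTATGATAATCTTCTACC
Igkv4-57-1: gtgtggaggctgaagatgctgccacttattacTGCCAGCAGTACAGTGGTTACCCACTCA
Igkv12-44: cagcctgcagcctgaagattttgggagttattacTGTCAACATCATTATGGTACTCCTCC
Igkv10-96: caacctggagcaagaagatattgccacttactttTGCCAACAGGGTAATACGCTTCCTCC
Igkv4-50: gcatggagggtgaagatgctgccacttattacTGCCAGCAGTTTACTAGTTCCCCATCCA
Igkv4-72: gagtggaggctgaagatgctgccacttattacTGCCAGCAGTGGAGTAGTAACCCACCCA
Igkv4-63: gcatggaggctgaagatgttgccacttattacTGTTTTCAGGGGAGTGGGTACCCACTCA
Igkv6-17: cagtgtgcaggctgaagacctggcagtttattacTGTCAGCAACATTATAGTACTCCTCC

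The V exons of these 10 segments lie at chr6:69900424-69900721 (Igkv5-39), chr6:69607275-69607577 (Igkv4-55), chr6:68736297-68736594 (Igkv19-93), chr6:69544359-69544667 (Igkv4-57-1), chr6:69814631-69814928 (Igkv12-44), chr6:68631963-68632260 (Igkv10-96), chr6:69700767-69701069 (Igkv4-50), chr6:69226854-69227156 (Igkv4-72), chr6:69377944-69378246 (Igkv4-63) and chr6:70371696-70371993 (Igkv6-17). The first 9 are on the minus strand and Igkv6-17 is on the plus strand. Among the 98 segments of functional type there were 86 distinct ends from the cysteine codon on, of which 76 belonged to 1 segment each. The end of Igkv4-72 is shared with Igkv4-59, Igkv4-68 and Igkv4-71, and no other end is carried by as many as 4 segments. Over the whole V exon a functional-type segment was identical to its nearest other member at a median of 94.5% of bases. Since 15 of the 98 had a copy of at least 97% identity, the division of reads within such pairs is uncertain. For the 10 segments shown, identity to the nearest member ran from 79.4% for Igkv19-93 to 95.7% for Igkv4-55 and Igkv4-72.

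Total counts per library ran from 52268311 to 63331135. KO 2 and KO 3 stood apart from the other pairs. Over all genes with at least 200 counts their differences had 5.82 times the variance that counting alone gives, against 24.2 to 87.2 times in the other 14 pairs, and over Igkv genes 4.29 times against 188 to 349 times. The Igkv levels of KO 2 and KO 3, on a log2(FPKM + 1) scale over 118 genes, had a Pearson correlation of 0.992, where the other pairs had 0.771 to 0.878. The ratios take each deposited, estimated count as 1 independent event. The counts piled up at 4, so this may not hold, and the ratios would then be too high. Whether KO 2 and KO 3 differed by more than counting noise is thus not settled, and whether they came from 1 source was not tested. KO 2 and KO 3 were averaged and counted as 1 sample, which leaves 2 KO and 3 WT samples. Results are also given for 6 libraries as labelled where the call depends on it. The label of the tissue was checked against 11 chondrocyte markers. Prg4 (lubricin), Comp and Acan (aggrecan), the highest of the list, had means of 565, 65.6 and 17.3 FPKM. Col2a1, Col11a1 and Hapln1 had means of 16.1, 10.2 and 9.47 FPKM. The others were low, with Sox9 at 1.79, Cnmd at 1.24, Col9a1 at 0.193, Matn1 at 0.0714 and Matn3 at 0.0388 FPKM. Transcripts of some chondrocyte markers were thus present. The summed level of the list ran from 522 to 1207 FPKM and was mostly that of Prg4, with 402 to 1034 FPKM. Neutrophil and erythroid markers were higher still, with summed levels of 13857 to 32050 FPKM for the 6 neutrophil genes and 14568 to 64894 FPKM for the 6 erythroid genes.

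Kappa transcripts were abundant in every library. Igkc, which encodes the kappa constant region, had 2127, 2819 and 2830 FPKM (fragments per kilobase of transcript, scaled to library depth) in KO 1, KO 2 and KO 3 and 2484, 2635 and 2738 FPKM in WT 1, WT 2 and WT 3. The Igkv genes added up to 2007, 2786 and 2843 FPKM in the KO libraries and to 2127, 2445 and 2731 FPKM in the WT libraries. The groups overlapped in both quantities, and KO 1 was the lowest library in both. The ratio of summed Igkv to Igkc was 0.944, 0.988 and 1.005 in KO and 0.856, 0.928 and 0.997 in WT. Per length, V segments and the constant gene were thus at nearly equal levels in each library. The 20 pseudogenes together took 0.0507% to 0.217% of the Igkv FPKM, and the one pseudogene that passed the filter of a mean of at least 0.5 FPKM, Igkv2-116, had a mean of 1.02 FPKM.

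Expression was spread over many segments, and a few took much of it. The number of Igkv genes with at least 0.5 FPKM was 79, 83 and 83 in KO 1, KO 2 and KO 3 and 89, 87 and 86 in WT 1, WT 2 and WT 3, and 11 to 24 genes were listed at 0. Between 8 and 10 segments were enough to reach 50% of the Igkv FPKM of a library. The 5 highest segments together held 36.3%, 33.3% and 34.5% in KO and 33.0%, 40.7% and 42.2% in WT. Pielou evenness, which is 1 when all segments are used equally, was 0.758, 0.790 and 0.785 in KO and 0.784, 0.751 and 0.748 in WT. WT 2, WT 3 and KO 1 were the least even libraries, and the remaining WT library lay with KO 2 and KO 3. Expressed as an effective number of equally used segments (the exponential of the Shannon entropy), usage amounted to 37.2, 43.4 and 42.4 segments in KO and to 42.1, 36.0 and 35.5 in WT.

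The identity of the leading segment changed from library to library. Igkv19-93 led in KO 1 with 13.9% of the Igkv FPKM, Igkv4-55 led in KO 2 and KO 3 with 7.70% and 7.69% and in WT 1 with 13.1%, Igkv4-57-1 led in WT 2 with 14.7%, and Igkv5-39 led in WT 3 with 15.9%. In counts, the leading segment of KO 1 had 5918 of 43614 Igkv counts (13.6%, exact 95% binomial interval 13.2% to 13.9%) and that of WT 3 had 9560 of 63619 (15.0%, interval 14.8% to 15.3%), so that counting error was small beside the differences between libraries. Such intervals cover counting error only. They take each estimated count as 1 independent event and are too narrow where 1 fragment adds several counts. A total of 18 segments reached the top 5 of some library and none did so in all 6. The top 10 of the 6 libraries held 22 segments, of which Igkv1-110, Igkv19-93 and Igkv4-55 were in every top 10. KO 2 and KO 3 shared 10 of 10 leading segments, and the other 14 pairs shared 3 to 7.

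**Figure D1:**
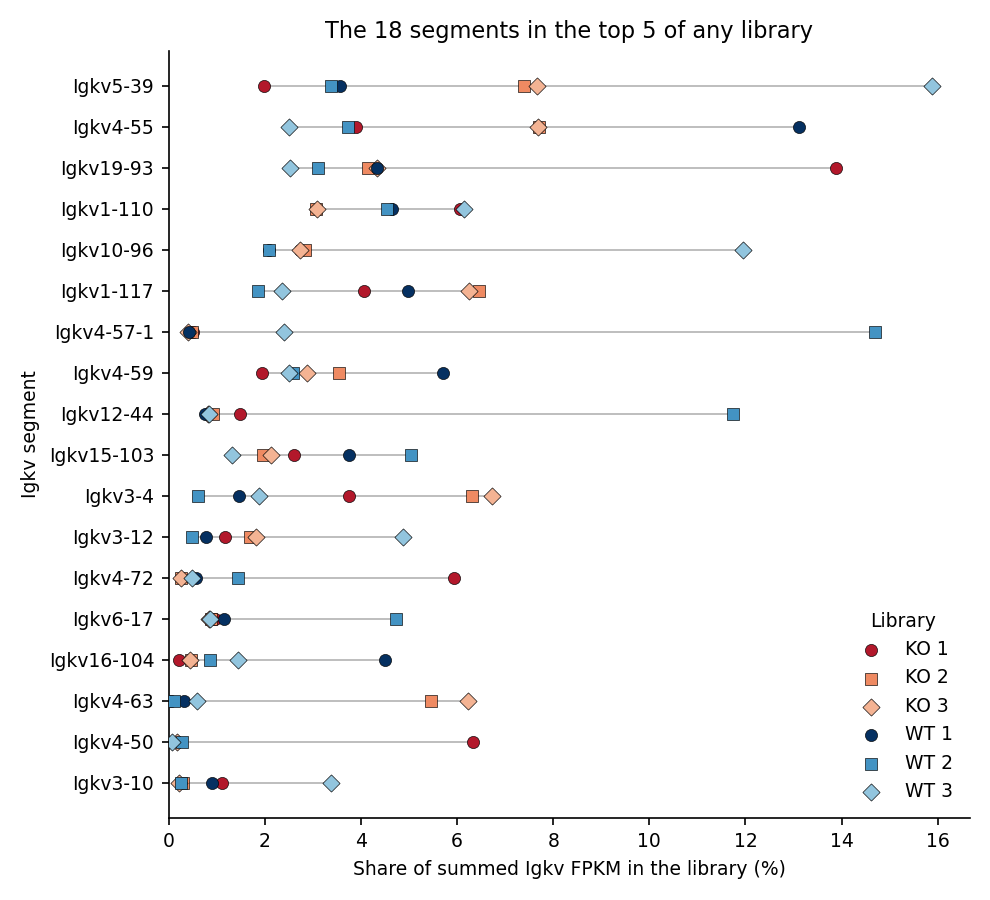
Share of the summed Igkv FPKM (x axis, %) taken by each of the 18 segments that were among the 5 highest of any library (y axis), 1 point per library, with a grey line from the lowest to the highest library. Several segments have a cluster of low points and 1 library far to the right, such as Igkv4-57-1 in WT 2 at 14.7% and Igkv10-96 in WT 3 at 11.9%, and the points of KO 2 and KO 3 lie together.

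The 3 segments found in every top 10 still varied. Igkv1-110 was the steadiest of them, with 122, 85.3 and 87.7 FPKM in KO 1, KO 2 and KO 3 and 98.9, 111 and 168 FPKM in WT 1, WT 2 and WT 3. Igkv4-55 had 78.2, 214 and 219 FPKM in KO and 279, 91.3 and 68.4 FPKM in WT. Igkv19-93, the sole member of its family, had 279, 115 and 123 FPKM in KO and 92.1, 75.8 and 68.7 FPKM in WT. For Igkv19-93 the KO libraries all lay above the WT libraries, with KO 1 far above the other two KO libraries. Igkv5-39 had the highest mean level of all members and ranked 15, 2 and 2 in KO and 8, 7 and 1 in WT. Its levels were 39.6, 206 and 218 FPKM in KO and 75.6, 82.5 and 434 FPKM in WT, and both the lowest and the second to highest samples were KO.

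Segments that dominated in 1 sample were sought by a fixed rule, at least 2% of the Igkv FPKM of a sample and at least 4 times the share in every other sample. The rule used the shares themselves, so the values are descriptions. It picked 7 segments, in 4 of the 5 samples. In KO 1, Igkv4-50 had 127 FPKM against 1.29 to 6.77 FPKM elsewhere, and Igkv4-72 had 119 FPKM against 7.27 to 35.3 FPKM. The share of Igkv4-50 in KO 1, 6.34%, was 22.9 times the next highest. In the averaged KO sample, Igkv4-63 held 5.85%, 10.03 times the next share, with 152 and 177 FPKM in KO 2 and KO 3 against 0.87 FPKM in KO 1 and 2.49 to 15.9 FPKM in WT. Had KO 2 and KO 3 been counted singly, Igkv4-63 would not have met the rule, because both libraries held it. In counts, Igkv4-63 took 5.22% of the Igkv counts of KO 2 (interval 5.06% to 5.39%) and 5.96% of those of KO 3 (5.79% to 6.14%). These intervals do not overlap, but they too take each estimated count as 1 independent event. Whether the share differed between these alike libraries by more than counting error is therefore not settled.

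Among the WT libraries, WT 2 had 3 such segments. Igkv4-57-1 had 359 FPKM there, with 9.0 FPKM in WT 1, 65.6 FPKM in WT 3 and 10.2 to 13.5 FPKM in KO. Igkv12-44 had 287 FPKM there and 15.8 to 29.7 FPKM in the other libraries, a share of 11.7% and 7.92 times the next highest. Igkv6-17 had 115 FPKM there and 19.4 to 24.7 FPKM elsewhere. In the other libraries Igkv12-44 ranked no higher than 21, and Igkv4-57-1 was in the top 10 of WT 2 and WT 3 only. In WT 3, Igkv10-96 had 326 FPKM and 44.5 to 79.1 FPKM elsewhere. WT 1 had no segment that met the rule. Just inside the limit were Igkv4-72 (4.11 times the next share), Igkv6-17 (4.14 times) and Igkv10-96 (4.29 times), and just outside were Igkv2-137 in WT 1 (3.78 times), Igkv17-127 in KO 1 (3.48 times), Igkv6-13 in the averaged KO sample (3.33 times) and Igkv19-93 in KO 1 (3.21 times).

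A few members were near 0 in all samples but 1. Chosen after their values were seen, 3 of 118 members had at least 5 FPKM in 1 sample and under 0.5 FPKM in all others. The rule itself requires this pattern, and the share of all genes that meet it was not counted. Igkv1-132 had 26.8 FPKM in WT 2 and at most 0.279 FPKM elsewhere. Igkv4-78 had 7.24 FPKM in WT 1 and at most 0.420 FPKM elsewhere, and Igkv8-26 had 6.58 FPKM in WT 1 and was listed at 0 in the other 5 libraries. Igkv8-26 is 98.1% identical to Igkv8-18, which had 0.42 FPKM in WT 1 and 5.37 and 5.31 FPKM in KO 2 and KO 3, so reads could have been divided between this pair.

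Single segments varied much more between samples than the kappa transcripts in sum. Over the 5 samples, the highest summed Igkv level was 1.40 times the lowest, and for Igkc the ratio was 1.33. Among the 67 Igkv genes whose mean was 5 FPKM or more, the median ratio of the highest to the lowest sample (with 0.1 FPKM added) was 5.01, where the median over all 7614 such genes was 1.42. A ratio of at least 4 was seen for 42 of the 67 (62.7%) and for 2.14% of all genes. The ratios of the 67 ran from 1.66 for Igkv9-120, which had 30.9 to 51.6 FPKM, to 357 for Igkv4-80, which was listed at 0 in KO 1 and had 35.6 FPKM in WT 3. Within the WT group alone, the SD of log2(FPKM + 1) had a median of 0.61 over 93 Igkv genes and 0.14 over 15373 genes. The WT libraries, sharing genotype, sex and age, therefore already differed widely in V segment usage.

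**Figure D2:**
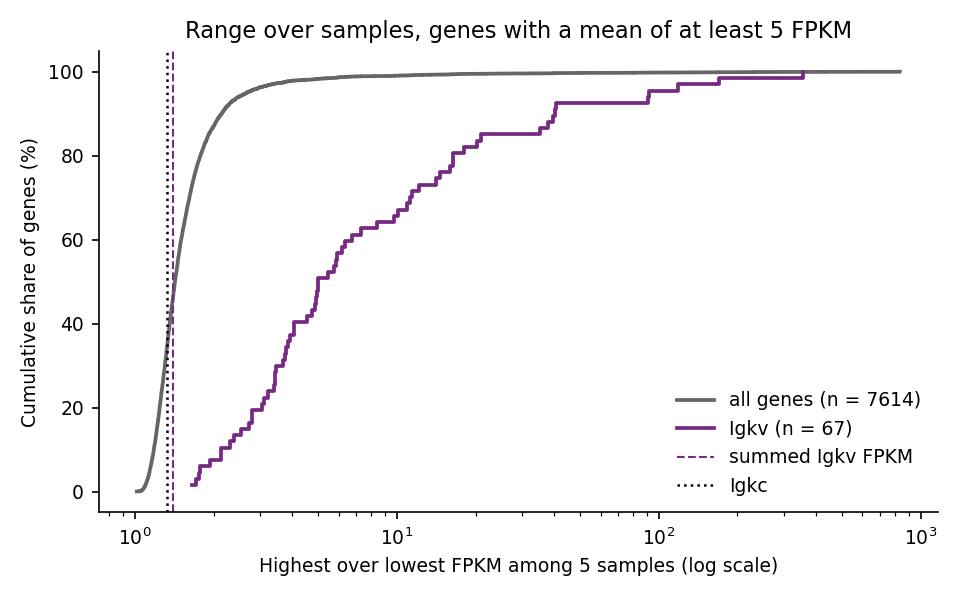
Cumulative share of genes (y axis, %) by the ratio of the highest to the lowest FPKM among the 5 samples (x axis, log scale), for the 67 Igkv genes and all 7614 genes whose mean was 5 FPKM or more. The Igkv curve lies to the right of the curve of all genes with a median of 5.01 against 1.42, and the dashed and dotted lines mark summed Igkv at 1.40 and Igkc at 1.33.

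Families, groups of segments with like sequence, evened out part of this variation. Within the Igkv4 family, the largest with 30 members, V exons of functional type were identical at a median of 89.3% of bases, and between families at 66.2%. Igkv4 held 22.1%, 22.8% and 22.6% of the Igkv FPKM in KO 1, KO 2 and KO 3 and 25.1%, 27.0% and 14.4% in WT 1, WT 2 and WT 3. Thus WT 3 was the lowest library for this family, and the KO values lay within the WT range. Igkv1, with 11 members, was steady at 9.16% to 12.3%. Igkv3, with 12 members close to the J segments, held 9.01%, 14.6% and 14.9% in KO and 7.43%, 6.69% and 13.5% in WT, so that WT 3 lay with KO 2 and KO 3. Small families followed their leading segment. Igkv10 held 14.1% in WT 3 and 3.63% to 5.12% elsewhere, Igkv12 held 13.5% in WT 2 and 3.46% to 4.65% elsewhere, and Igkv5 held 17.9% in WT 3 and 5.52% to 10.6% elsewhere. Igkv16, whose sole member is Igkv16-104, held 4.49% in WT 1, 0.86% in WT 2 and 1.44% in WT 3, above 0.22% to 0.46% in the KO libraries. Of the 19 families 5 did not overlap between the groups, Igkv9 being higher and Igkv11, Igkv12, Igkv13 and Igkv16 lower in KO. Beside this, 28.6% of all genes did not overlap in FPKM over the 5 samples. Taken by single libraries, the groups were barely apart for Igkv12, with KO 2 at 3.83% and WT 3 at 3.84%. The 4 members of Igkv9 together held 3.76%, 3.38% and 3.32% in KO and 2.40%, 1.93% and 2.24% in WT. Without Igkv9-124 the other Igkv9 members held 2.12%, 1.86% and 1.87% in KO and 2.01%, 1.496% and 1.896% in WT, which overlapped. Igkv13 held 0.646% to 0.689% in KO and 1.09% to 1.64% in WT, and Igkv11 held 0.0118% to 0.0202% in KO and 0.0807% to 0.205% in WT.

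**Figure D3:**
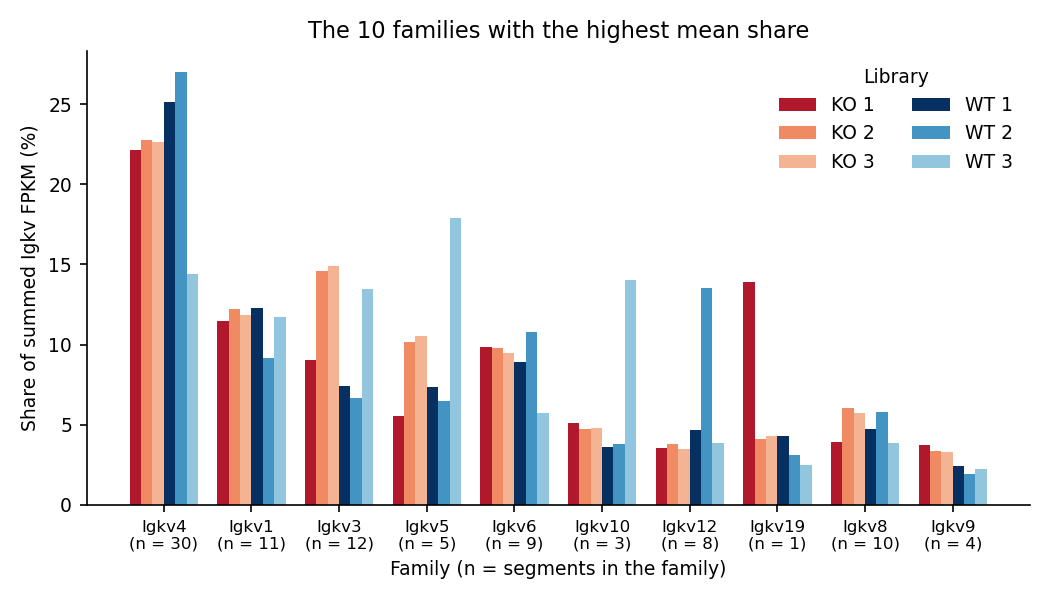
Share of the summed Igkv FPKM (y axis, %) held by the 10 families with the highest mean share (x axis, with the number of segments in each), 1 bar per library. Igkv4 and Igkv1 are alike in most libraries, with Igkv4 at 14.4% in WT 3, and Igkv5, Igkv10, Igkv12 and Igkv19 each have 1 bar well above the others.

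Usage reached across the whole locus. The 22 members within 500 kb of Igkj1, the nearest J segment, held 19.0%, 25.6% and 25.8% of the Igkv FPKM in KO and 14.9%, 16.2% and 19.0% in WT. For the 53 members more than 1500 kb away, the shares were 47.9%, 36.6% and 36.9% in KO and 44.3%, 31.7% and 44.9% in WT. In the near block KO 1 and WT 3 were equal to within 3 digits and the other WT libraries were lower, and in the far block the groups overlapped. Plus-strand members, 50 of 118, held 34.2% to 41.3%, so that the split between strands was alike in all libraries. The leading segments lay far apart, with Igkv19-93 at 1986 kb from Igkj1, Igkv4-57-1 at 1178 kb, Igkv4-55 at 1115 kb and Igkv5-39 at 822 kb.

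**Figure D4:**
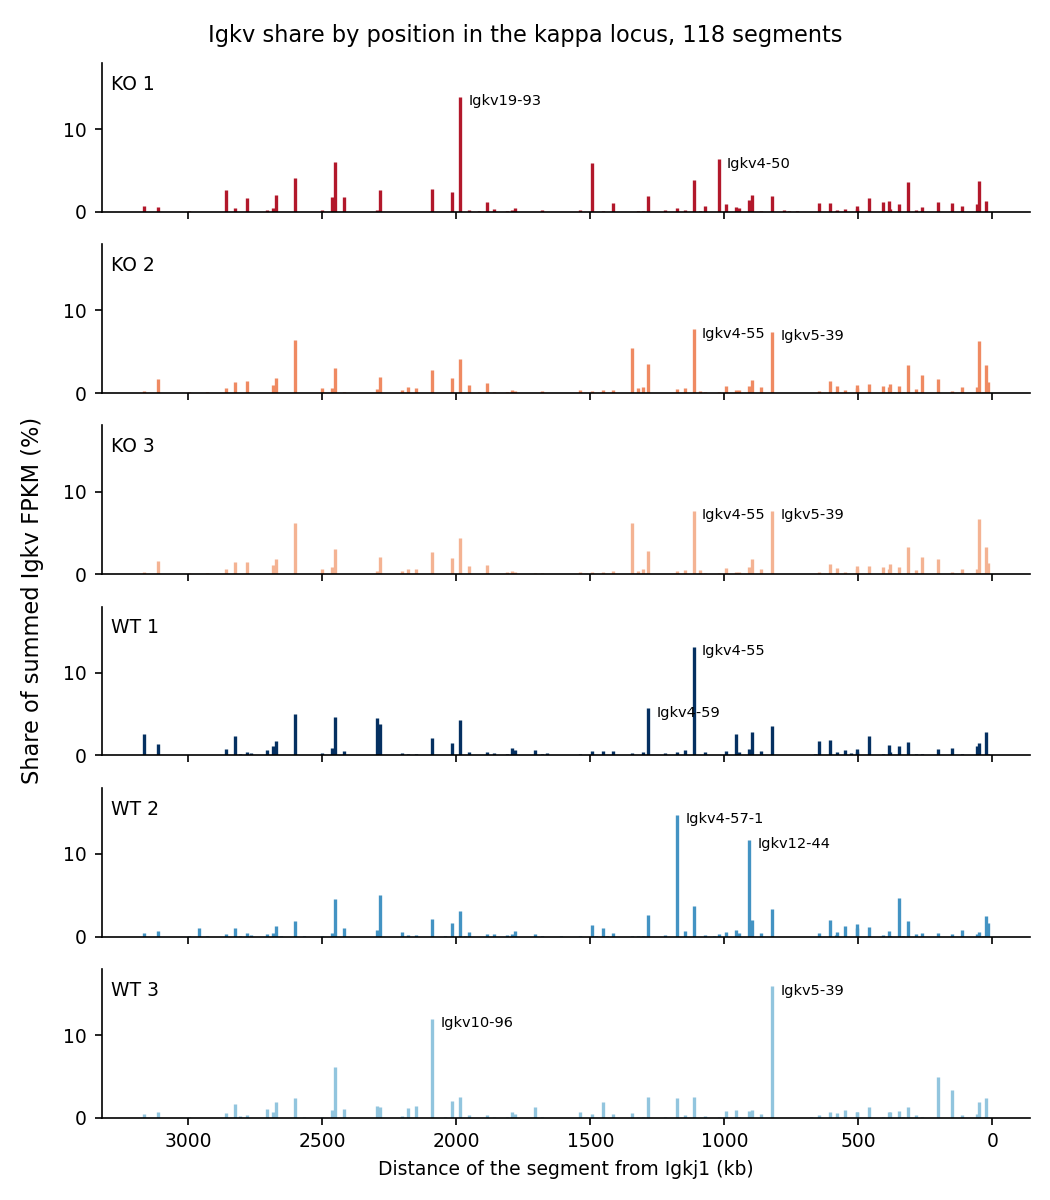
Share of the summed Igkv FPKM (y axis, %) of each of 118 Igkv genes by its distance from Igkj1 (x axis, kb), 1 panel per library, with the 2 highest segments named. The tall lines stand at different places in KO 1, WT 1, WT 2 and WT 3, and at the same places in KO 2 and KO 3.

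Whether KO and WT differed in kappa usage as a whole was tested with 4 summary values, by two-sided exact permutation tests of 2 KO against 3 WT samples, which cannot give a p below 0.2. The log2 of the summed Igkv FPKM was 11.21 ± 0.35 (SD, n = 2) in KO and 11.24 ± 0.18 (SD, n = 3) in WT, a difference of -0.03 (exact permutation p = 1, adjusted p = 1 over the 4 tests). Evenness was 0.773 ± 0.021 in KO and 0.761 ± 0.020 in WT (exact permutation p = 0.4, adjusted p = 0.8). The share of the top segment was 10.8% ± 4.38 in KO and 14.6% ± 1.39 in WT (exact permutation p = 0.4, adjusted p = 0.8). The log2 ratio of Igkv to Igkc was -0.04 ± 0.06 in KO and -0.11 ± 0.11 in WT (exact permutation p = 0.6, adjusted p = 0.8). In all 4 values the difference was smaller than the larger of the SDs of the groups. The sign of the summed level depended on single libraries, being 0.22 without KO 1 and 0.06 without WT 3. In edgeR's quasi-likelihood test Igkc itself had a log2 difference of -0.07 (SE 0.22, Benjamini-Hochberg adjusted p = 0.946), and of 0.07 without KO 1.

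Markers of the B lineage were not alike between the groups. Of 14 mature B cell markers 13 had a lower level in KO at an unadjusted p under 0.05 in edgeR. Of 11 precursor B cell markers tested 10 did, where 6.07% of all genes were lower at that threshold. The remaining precursor marker, Erg, was higher in KO at that threshold, as were 7.63% of all genes. Erg had 9.23, 11.6 and 11.5 FPKM in KO and 7.68, 7.09 and 7.07 FPKM in WT. The remaining mature marker, Cd37, had 43.5, 53.3 and 56.2 FPKM in KO and 47.9, 44.7 and 45.2 FPKM in WT. None of these markers passed Benjamini-Hochberg adjustment. With 6 libraries as labelled, 9 of the 14 and 10 of the 11 passed it. Cd79a, a signalling chain of the B cell receptor, had 45.6, 26.1 and 26.3 FPKM in KO and 98.3, 94.2 and 87.6 FPKM in WT. Summed over the 14 mature B cell genes the levels were 219, 163 and 170 FPKM in KO and 461, 383 and 390.3 FPKM in WT, and over the precursor genes 41.1 to 45.8 FPKM in KO and 92.5 to 106 FPKM in WT. The sum of the plasma cell markers overlapped, at 305, 347 and 359 FPKM in KO and 335, 414 and 349 FPKM in WT, with 4 of 13 lower and none higher at that threshold, and 2 that passed adjustment with 6 libraries as labelled. The 4 were Sdc1, Irf4, Mzb1 and Slamf7, whose groups did not overlap, named after their values were seen, with Mzb1 at 13.5, 12.1 and 10.7 FPKM in KO and 18.1, 21.7 and 18.6 FPKM in WT. Jchain, which links antibody polymers and is a marker of plasma cells, had 128, 165 and 174 FPKM in KO and 162, 228 and 178 FPKM in WT. Xbp1, the next highest of the list, had 67.5, 71.8 and 72.6 FPKM in KO and 54.3, 61.1 and 56.1 FPKM in WT. Its groups did not overlap, with KO higher. Ssr4 had 41.4, 31.8 and 31.9 FPKM in KO and 25.3, 40.3 and 31.2 FPKM in WT, which overlapped. Of the 13 plasma cell markers tested, 5 had a higher and 8 a lower level in KO. In bulk tissue, fewer cells of a type and less RNA per cell cannot be told apart, and the part of these cell types in the Igkv levels was not tested.

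Single members were compared by edgeR's quasi-likelihood test, fitted on 15373 genes. Of the 118 members 93 passed the filter on low values, and the 25 left out were 19 pseudogenes and 6 segments of functional type with means under 0.5 FPKM. None of the 93 passed an adjusted p of 0.05 with 2 KO and 3 WT samples, and neither did any other gene (0% of all genes), the lowest adjusted p being 0.105. With 6 libraries as labelled, 6 of 93 members were called, beside 3.71% of all genes, with Igkv9-124, Igkv8-21, Igkv12-89, Igkv6-15 and Igkv4-54 higher and Igkv11-125 lower in KO. DESeq2 on the 5 samples called 12 of 93, beside 5.72% of all genes. Leaving out KO 1 gave 6 calls, all higher in KO and beside 2.29% of all genes, with the averaged sample as the lone KO sample assumed to vary like WT, and leaving out the averaged sample gave 1, Igkv19-93, beside 0.0585% of all genes. Whether a member was called therefore rested on how KO 2 and KO 3 were counted, on the tool and on the filter, 2 of 118 being called with no filter on low values, beside 0.0626% of all genes.

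At an unadjusted p under 0.05, 24 of the 93 (25.8%) differed, against 13.7% of all genes. Of these, 13 were higher in KO (7.63% of all genes were) and 11 lower (6.07%). Members moved both ways in near balance, with 45 of 93 higher and 48 lower in KO and a median log2 difference of -0.03, against -0.02 over all genes. The size of the differences was larger than in most genes, with a median absolute log2 difference of 0.86 for Igkv and 0.20 for all. The FPKM of KO and WT samples did not overlap for 20 of the 93 members (21.5%), 10 in each direction, which is below the 28.6% of all genes. The members' larger differences thus went with a larger spread inside the groups.

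**Figure D5:**
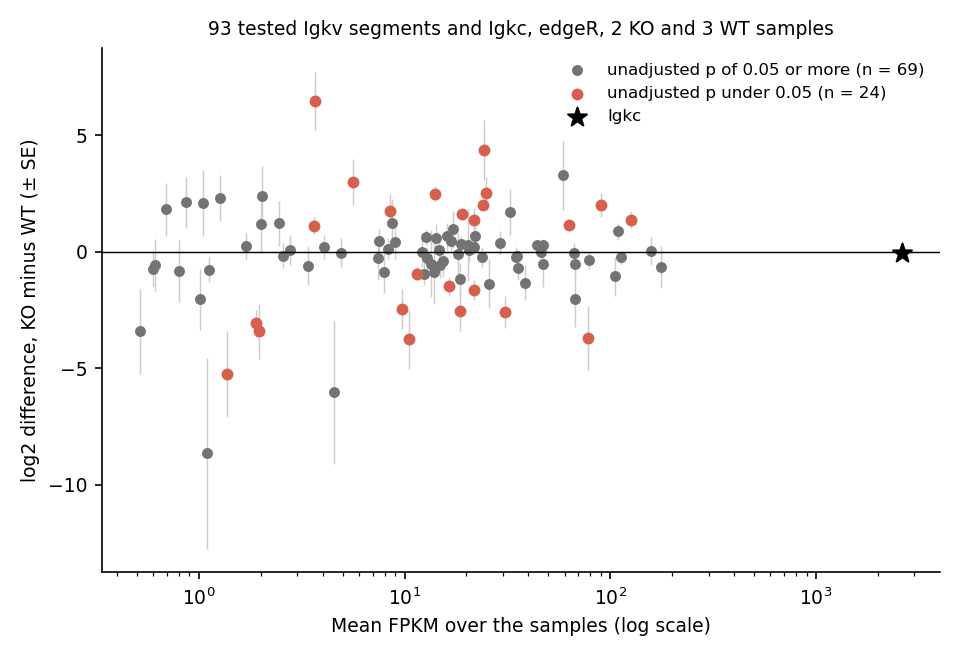
log2 difference of KO minus WT with its SE (y axis) against mean FPKM (x axis, log scale) for the 93 tested Igkv genes and Igkc, from edgeR with 2 KO and 3 WT samples. The points scatter on both sides of 0, 45 above and 48 below, with the 24 at an unadjusted p under 0.05 in red and none past adjustment, and Igkc lies at -0.07.

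The 5 members with the lowest p and a mean of at least 5 FPKM were all higher in KO. They were picked on these same libraries, and a low p favours a small spread inside the groups and a lack of overlap. Both traits are therefore descriptions only. Igkv9-124 had 32.9, 42.2 and 41.4 FPKM in KO 1, KO 2 and KO 3 and 8.37, 10.6 and 9.37 FPKM in WT 1, WT 2 and WT 3. Igkv8-21 had 24.6, 22.3 and 24.3 FPKM in KO and 4.87, 5.18 and 2.84 FPKM in WT. Both varied little inside each group, and the groups did not overlap. Igkv12-89 had 23.0, 32.5 and 31.6 FPKM in KO and 10.1, 8.41 and 8.66 FPKM in WT, and Igkv6-15 had 72.7, 94.6 and 95.2 FPKM in KO and 33.8, 46.0 and 34.4 FPKM in WT. Igkv3-4, which lies 50.2 kb from Igkj1, had 75.2, 176 and 191 FPKM in KO and 31.0, 15.0 and 51.1 FPKM in WT. In these 3 segments the groups did not overlap either, and for Igkv3-4 the gap was that between KO 1 and WT 3. Their log2 differences were 1.99 (SE 0.22), 2.49 (SE 0.32), 1.61 (SE 0.23), 1.15 (SE 0.21) and 2.00 (SE 0.50), and the adjusted p from edgeR were 0.105, 0.111, 0.140, 0.166 and 0.181 in that order. None of the 5 was among the library-specific dominant segments, and their ranks in KO ran from 3 to 33. Igkv9-124 and its nearest member Igkv9-120 are 96.0% identical, and Igkv9-120 had 42.2, 51.0 and 51.6 FPKM in KO and 36.3, 30.9 and 50.9 FPKM in WT, a log2 difference of 0.27 (SE 0.23, adjusted p = 0.707 from edgeR).

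The remaining pair of members called with 6 libraries as labelled were lower in level. Igkv4-54 had 1.16, 7.49 and 13.3 FPKM in KO and was listed at 0 in WT 1 and WT 2 and at 0.16 FPKM in WT 3. Igkv11-125 had 0.37, 0.19 and 0.57 FPKM in KO and 2.81, 1.97 and 5.44 FPKM in WT. Both were picked by a call on these libraries, so that their lack of overlap between the groups is a description only. Igkv4-54 passed the filter of a mean of 0.5 FPKM only through KO. In WT it had a mean of 0.053 FPKM and counts of 0, 0 and 4. Igkv11-125 passed the filter only through WT. In KO it had a mean of 0.379 FPKM and counts of 8, 5 and 15. DESeq2 on the 5 samples, which come from the same libraries, also called Igkv11-125.

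The J segments, the partners to which the V segments are joined, were also compared. These exons are very short, which makes their FPKM less exact than that of V exons. Igkj1 had 383, 557 and 586 FPKM in KO and 376, 464 and 485 FPKM in WT. Igkj2 had 340.3, 346 and 300.4 FPKM in KO and 449, 299 and 710.1 FPKM in WT, and Igkj4 had 212, 260.0 and 437 FPKM in KO and 162, 293 and 72.8 FPKM in WT. In WT 3, the library led by Igkv5-39, Igkj2 was at its highest and Igkj4 at its lowest. Igkj5 had 179 to 322 FPKM, and Igkj3 had 8.07 to 14.4 FPKM in the 6 libraries. None of the 5 differed between KO and WT at an unadjusted p under 0.05 in edgeR. Igkj4 differed between KO 2 and KO 3, whose V segments were nearly alike.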

How the data were processed

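RNA was sequenced from articular cartilage of 3 KO and 3 WT mouse libraries. The identity and level of the deleted gene are not reported here. The authors deposited FPKM values and estimated counts per gene; their notes name cutadapt 1.9, HISAT2 2.0.4, StringTie 1.3.4d, UMI-tools, edgeR and DESeq2. The deposited estimated counts were whole numbers but piled up at 4, with 6596 values of 4 against 4170 of 3 and 2332 of 5. No per-sample column was left unused (0). Columns of the authors' own comparison were not used. Gene positions equalled those of GENCODE M21 for all 118 members.

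Counts were tested with edgeR 4.0.16 (TMM scaling, quasi-likelihood, Benjamini-Hochberg) in R 4.3.3, after a filter of a mean of at least 0.5 FPKM. Summary values were tested by exact permutation in scipy 1.17.1. Shares are of summed Igkv FPKM. KO 2 and KO 3 were averaged (counts rounded) because every other pair differed at least 3 times as much. This limit was set after the ratios and the calls had been seen: a limit of 5 was tried first, left 6 libraries and gave 6 called members in place of 0. The deviations of same-numbered libraries correlated at -0.14, -0.11 and -0.06, which gives no sign that the numbers pair the samples. As KO 2 and KO 3 were nearly alike, these values are not independent, and they cannot exclude pairing. Named genes were the 5 highest segments of each library, the library-specific dominant segments, the 5 members with the lowest p at a mean of at least 5 FPKM, Igkc and Igkj1 to Igkj5, and the 3 highest genes of a marker list; others are said to be chosen later. Members and lists were chosen with earlier results of these data known. The edgeR step was tested on simulated data.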

Additional observations from a re-analysis of the deposited data

How the results depend on the processing

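Called members numbered 0 in 10 of the 15 alternatives run, including the replicate block on the 6 libraries as labelled. They numbered 2 with no filter on low values, 12 with DESeq2, 6 with 6 libraries as labelled, and 1 without the averaged KO sample, an alternative added after the data were seen. Leaving out 1 library gave 0 to 6, with 6 without KO replicate 1. In the fits with at least 2 KO samples, members at an unadjusted p under 0.05 numbered 18 to 32. The 18 were found with a minimum of 5 FPKM, beside 1291 of 7614 genes. The replicate block gave 26, beside 2809 of 15373 genes. The log2 difference of summed Igkv turned from -0.03 to 0.035 without the highest segment of each library and to 0.054 with 6 libraries as labelled, and ran from -0.12 to 0.22 with 1 library left out. The difference in evenness was 0.012, ran from 0.0056 (without WT replicate 3) to 0.027 (without KO replicate 1) with 1 library left out, and was -0.0030 without the averaged KO sample. That of Igkc turned to 0.071 without KO replicate 1 and ran from -0.13 to 0.071 with 1 library left out. The cause was not tested. The top segment's share was lower in KO in all 10 alternatives, but the difference of -3.77 points became -6.87 without KO replicate 1 and -0.67 without the averaged KO sample. The log2 ratio of Igkv to Igkc was higher in KO in all 10, its difference of 0.068 becoming 0.012 without WT replicate 1, 0.028 without the averaged KO sample, 0.11 without KO replicate 1, 0.12 without WT replicate 3 and 0.13 without the highest segment of each library. With 2 KO samples no permutation p could pass 0.05. Depth did not limit the leading segments, and members under 0.5 FPKM were compared only in the fit with no filter. In that fit 32 of 118 members had an unadjusted p under 0.05, beside 2686 of 33520 genes.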

Other observations

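Genes that act on the kappa locus before and during joining were present in all 6 libraries. Of 12 V(D)J recombination genes, 5 were lower and none higher in KO at an unadjusted p under 0.05 in edgeR, where 6.07% of all genes were lower and 7.63% higher. Rag1, Rag2 and Dntt, 3 of the 5, are also in the precursor B cell list, and the other two were Xrcc5 and Xrcc6. The list had summed levels of 372 to 391 FPKM in KO and 331 to 399 FPKM in WT that were mostly those of Hmgb2. Of 13 transcription factors that bind the kappa enhancers or set B cell fate, 6 were lower and 1 higher, and Pax5, Ebf1 and Irf4 among the 6 are each also in a B cell or plasma cell list. Spi1 (PU.1), which neutrophils also express, had 71.8, 89.1 and 90.2 FPKM in KO and 44.6, 51.5 and 50.7 FPKM in WT (adjusted p = 0.166 from edgeR). Tcf3 (E2A) had 22.2, 20.5 and 17.5 FPKM in KO and 26.3, 30.2 and 33.2 FPKM in WT (adjusted p = 0.252 from edgeR). With 2 KO and 3 WT samples no gene of either list passed Benjamini-Hochberg adjustment. With 6 libraries as labelled, 2 of the 12 V(D)J recombination genes and 5 of the 13 transcription factors did, beside 3.71% of all genes.

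Of 5 germinal centre B cell markers tested, 3 were higher and 1 lower in KO at an unadjusted p under 0.05, and summed levels were 21.7 to 26.1 FPKM in KO and 19.7 to 23.3 FPKM in WT. Of 8 T and NK cell markers 1 was higher and 2 lower, of 6 neutrophil markers 4 were higher, of 6 erythroid markers 4 were lower, and of 8 chondrocyte markers tested none was at that threshold, beside 7.63% of all genes higher and 6.07% lower. With 2 KO and 3 WT samples none of the genes in these lists passed Benjamini-Hochberg adjustment. With 6 libraries as labelled, 2 neutrophil markers and 1 erythroid marker passed it, beside 3.71% of all genes. None of the germinal centre, T and NK cell or chondrocyte markers did.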
